A study of Mus musculus with 8 samples.

Results

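The transcripts described here are those of 10 genes of clathrin-mediated endocytosis, SNAP91, PICALM, CLTC, CLTA, AP2A1, AP2A2, AP2B1, AP2M1, DNM2 and EPN2, taken by symbol from a table of 33514 gene rows. All 10 were found, 1 row each, and 8 passed the filter on low counts. The counts come from RNA-seq of adult cardiomyocytes, the contractile cells of the heart, isolated from C57BL/6 mice and kept in culture. The siHoxa5 group (4 libraries) was transfected with an siRNA against Hoxa5, a homeobox transcription factor, and the siN group (4 libraries) with a negative control siRNA. All 8 cultures then received phenylephrine, an agonist of alpha1-adrenergic receptors used to induce hypertrophic growth, at 100 µM for 24 h, starting 24 h after transfection. No library without phenylephrine was used here, and the labels state neither the age of the mice nor how many animals or cultures lie behind each set of 4, so every error reflects variation among libraries that may be technical. The genes were chosen with the siHoxa5 against siN comparison in view, so their own fold changes are given as a description and support nothing by themselves.

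Clathrin-mediated endocytosis takes receptors and membrane proteins from the cell surface into coated vesicles. The AP-2 adaptor binds cargo and the lipid PIP2 at the plasma membrane and recruits clathrin triskelia, which are built of heavy and light chains and polymerize into the coat. Accessory proteins with ANTH or ENTH domains (AP180, the product of SNAP91, CALM, the product of PICALM, and the epsins) bind the same lipid, help set the size of the vesicle or bend the membrane, and dynamin cuts the neck. SNAP91 is best known from neurons, where AP180 works in the retrieval of synaptic vesicles, while PICALM and the coat and adaptor subunits are expressed broadly. In the heart this route is known for taking up adrenergic and other receptors after stimulation.

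SNAP91 and PICALM encode paralogs that begin with the same kind of lipid-binding ANTH domain, and their coding sequences are shown here because their RNAs had opposite signs in the comparison. The mouse gene Snap91 lies on chromosome 9 (GRCm38, 86765923 to 86880654, minus strand) and Picalm on chromosome 7 (90130213 to 90213465, plus strand). Over their longest coding sequences in GENCODE M21 they had the same base at 69.2% of 1962 aligned positions, and the longest identical run was 14 bases. The stretch around that run, coding bases 43 to 176 in both, covers 134 bases, of which 30 differ and are in capitals:
SNAP91: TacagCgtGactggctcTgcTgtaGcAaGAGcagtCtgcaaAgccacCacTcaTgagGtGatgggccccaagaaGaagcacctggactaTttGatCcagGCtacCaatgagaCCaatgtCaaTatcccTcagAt
PICALM: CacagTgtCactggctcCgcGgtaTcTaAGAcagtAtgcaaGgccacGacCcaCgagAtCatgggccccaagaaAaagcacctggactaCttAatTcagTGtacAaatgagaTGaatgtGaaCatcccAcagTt
By the same measure AP2A1 and AP2A2, the alternative alpha subunits of AP-2, had 77.7% identity and a longest shared run of 68 bases, and DNM2 had 79.1% identity with DNM1 and a run of 34 bases. No label states how reads matching more than 1 gene were assigned, so the split between AP2A1 and AP2A2 is uncertain. The other members lie (GRCm38) on chromosome 11 (Cltc, 86694351 to 86757565; Ap2b1, 83299024 to 83405035; Epn2, 61517249 to 61579687), chromosome 4 (Clta, 44004452 to 44032846), chromosome 7 (Ap2a1, 44900373 to 44929496; Ap2a2, 141562173 to 141633011), chromosome 16 (Ap2m1, 20535478 to 20544909) and chromosome 9 (Dnm2, 21424908 to 21507759).

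The 250 bases before the RefSeq start (GRCm38.p6) are shown for the same pair, the members whose libraries did not overlap between groups. They lie at chr9:86880709-86880958 (minus strand) for Snap91 and chr7:90129963-90130212 (plus strand) for Picalm, and capitals mark CpG dinucleotides:
Snap91 promoter: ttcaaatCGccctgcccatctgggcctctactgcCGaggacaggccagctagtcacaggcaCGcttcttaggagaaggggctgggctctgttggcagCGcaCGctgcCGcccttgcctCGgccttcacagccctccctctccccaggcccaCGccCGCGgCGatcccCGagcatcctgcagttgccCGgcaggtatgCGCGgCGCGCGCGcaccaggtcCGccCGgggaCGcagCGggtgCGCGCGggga
Picalm promoter: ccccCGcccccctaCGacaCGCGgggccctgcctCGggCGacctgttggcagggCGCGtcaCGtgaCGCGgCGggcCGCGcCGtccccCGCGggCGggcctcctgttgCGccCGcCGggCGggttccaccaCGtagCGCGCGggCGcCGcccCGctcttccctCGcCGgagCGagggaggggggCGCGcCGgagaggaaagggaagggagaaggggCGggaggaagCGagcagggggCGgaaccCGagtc
Both are rich in CpG, with 26 in Snap91 and 39 in Picalm. In windows of 300 bases (250 before to 50 after the start), the GC content was 72.0% in Snap91 and 78.0% in Picalm, where the median of 32851 mouse promoters was 52.7%. Because the siRNA targets a homeobox factor, 2 strings were searched on both strands, the homeodomain core TAATTA and the PBX-HOX composite TGATNNAT. Neither was present in any of the 11 windows of the 10 genes, while 5.29% and 8.85% of all promoters held them. This says only that these letters are not in these windows.

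Each siHoxa5 library held 560190 to 619942 counts and each siN library 635824 to 658192, so the groups differed in depth without overlap; levels below are counts per 1e6 (CPM) on TMM-scaled library sizes. The symbols are spelled as human genes. Only 19 rows were spelled as mouse symbols and 16226 more matched with case ignored. The other 17269 rows had no namesake in the list of mouse gene symbols used here. No label names the annotation behind the counts, and how far it lowered rows or left them at 0 was not tested. HOXA5 had 1, 3, 4 and 1 counts in siHoxa5 libraries 1 to 4 and 2, 0, 3 and 3 in siN libraries, a ratio of rates of 1.23 (exact 95% interval 0.421 to 3.66, counting error only). The knockdown could not be checked with so few counts, so each direction below rests on the siHoxa5 and siN labels alone. On the first principal component (25.8% of the variance) siHoxa5 libraries 2 and 4 lay farther from siN than libraries 1 and 3. Of 10 cardiomyocyte markers 8 had counts, with TNNI3 and PLN at 0, and their summed level was 66408 to 71384 CPM in siHoxa5 and 52812 to 56285 CPM in siN libraries. These markers did not all move alike: the log2 fold change was 0.31 (SE 0.05) for ACTN2 and -0.03 (SE 0.05) for ACTC1. Their sum alone therefore does not give the share of cardiomyocytes. Fibroblast markers, 6 of 8 with a count (LUM and TCF21 at 0), summed to 10749 to 12678 CPM in siHoxa5 and 10043 to 10700 CPM in siN libraries. Only 2 of these markers passed the filter on low counts, so the sum rests mainly on those.

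SNAP91 had the largest log2 fold change of the 8 tested members, in size. It stood at 436, 476, 429 and 350 CPM in siHoxa5 libraries 1 to 4 and at 243, 229, 269 and 216 CPM in siN libraries 1 to 4. Every siHoxa5 library was above every siN library, with siHoxa5 library 4 the lowest of its group. The means were 423 ± 52.7 CPM in siHoxa5 and 239 ± 22.6 CPM in siN libraries (SD, n = 4 each), from 998 and 622 counts. The log2 fold change was 0.82 (SE 0.10), which is 1.77-fold, and its size was above that of 98.3% of tested genes. It ranged from 0.77 to 0.90 over 16 other settings, passed the threshold under each of them, and was 0.86 without siHoxa5 libraries 2 and 4. In bulk RNA, more RNA per cell and a larger share of cells that express a gene cannot be told apart.

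Because SNAP91 is best known from neurons, 14 neuronal markers were read beside it. Of these, 8 had any count and none passed the filter. Among the others, SNAP25, SYP, TUBB3, RBFOX3 and UCHL1 were at 0 in all 8 libraries. The cardiomyocyte markers TNNI3 and PLN were at 0 too, so a row at 0 does not show that its gene was silent. The summed level of the 14 was 25.7 to 39.5 CPM in siHoxa5 and 19.6 to 34.9 CPM in siN libraries, overlapping, and below SNAP91 alone in every library. Most of it came from ELAVL4 (29 counts in siHoxa5 and 20 in siN libraries) and STMN2 (26 counts in siHoxa5 and 31 in siN libraries). Schwann cell markers, 5 of 6 with a count (S100B at 0), had 39.5 to 59.6 CPM in siHoxa5 and 48.3 to 57.6 CPM in siN libraries. The cardiomyocyte marker sum, the fibroblast marker sum and the library depth each separated the groups without overlap, as SNAP91 did, and their part in its difference was not tested.

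PICALM, whose product CALM is the broadly expressed relative of AP180, had the highest CPM of the 10 and lay lower in the siHoxa5 libraries. It had 2335, 2410, 2229 and 2552 CPM in siHoxa5 libraries 1 to 4, against 2637, 2771, 2677 and 2597 CPM in siN libraries 1 to 4. The groups did not overlap, but the gap was narrow: siHoxa5 library 4 lay just under siN library 4. The log2 fold change was -0.17 (SE 0.05), a fold of 0.891, with means of 2382 ± 136 CPM in siHoxa5 and 2670 ± 74.9 CPM in siN libraries (SD, n = 4 each). It missed the threshold without siHoxa5 library 3 (-0.14), without siN library 1 (-0.17), 2 (-0.15) or 3 (-0.17), and when every gene with a count was tested (-0.16). Once a trend with GC content and transcript length was taken out, it was -0.24 and passed. Over tested genes with a known length, log2 fold change and length had a Spearman correlation of 0.22.

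**Figure D1:**
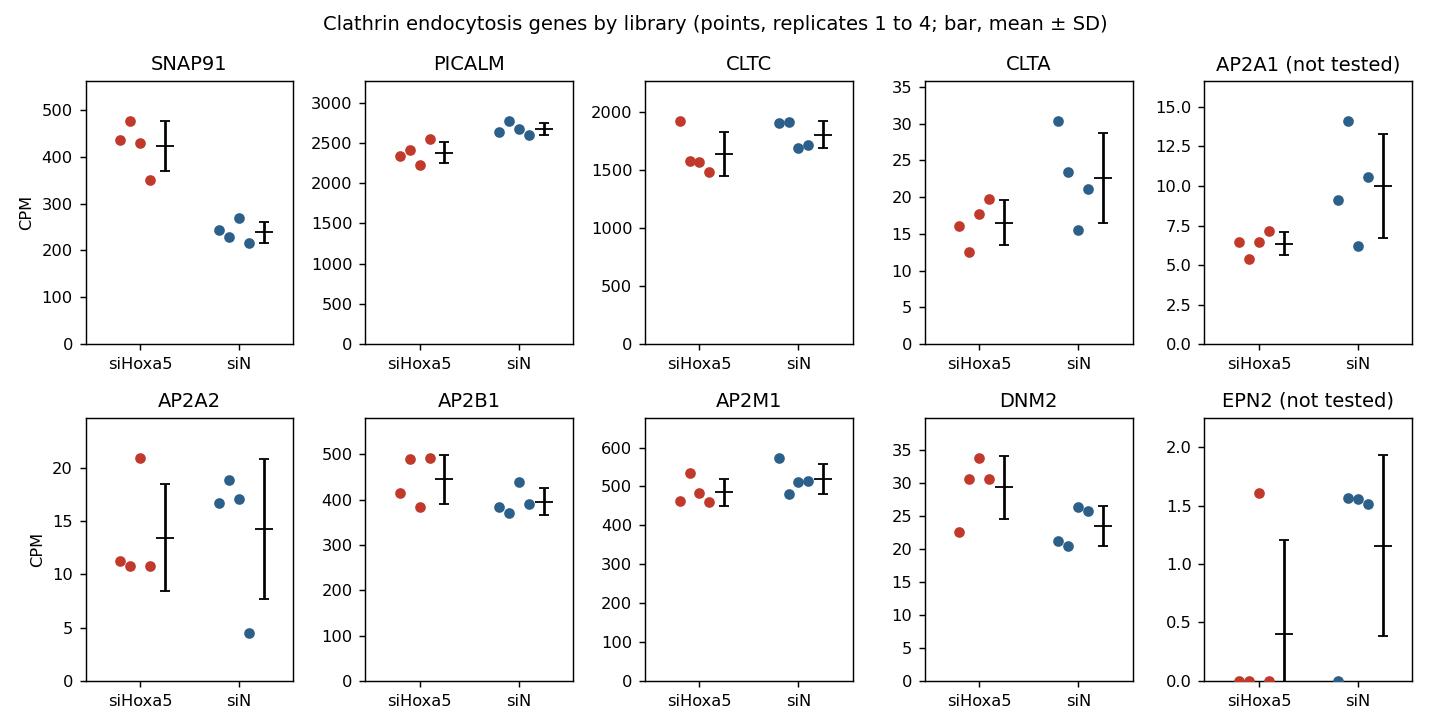
Each panel plots CPM on TMM-scaled library sizes for 1 gene, with siHoxa5 libraries (red) left of siN libraries (blue), points for replicates 1 to 4, and a bar for the mean ± SD (n = 4), cut off at 0 where it would run below. SNAP91 and PICALM are the panels in which the groups do not overlap, with SNAP91 at 350 to 476 CPM in siHoxa5 and 216 to 269 CPM in siN libraries.

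The coat itself was represented by a well-counted heavy chain and a sparsely counted light chain. CLTC, the clathrin heavy chain, had 1923, 1580, 1575 and 1483 CPM in siHoxa5 libraries 1 to 4 and 1904, 1916, 1690 and 1719 CPM in siN libraries 1 to 4. Library 1 of siHoxa5 lay above every siN library, while the other 3 lay below all of them. The log2 fold change was -0.14 (SE 0.06), short of the threshold. Without siHoxa5 library 1 it was -0.22 and passed, it passed at -0.19 once a trend with GC content and transcript length was taken out, and without siHoxa5 libraries 2 and 4 it was -0.04. CLTA, the light chain A that links the heavy chain to actin regulators, had 7 to 11 counts in siHoxa5 and 10 to 20 in siN libraries, or 16.5 ± 3.03 CPM in siHoxa5 and 22.6 ± 6.13 CPM in siN libraries (SD, n = 4 each). Its log2 fold change was -0.45 (SE 0.34, approximate 95% interval -1.12 to 0.23), and -0.27 without siN library 1.

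None of the AP-2 genes passed the threshold, and AP2A1 was not tested. AP2B1, the beta subunit that binds clathrin, had 414, 488, 384 and 492 CPM in siHoxa5 libraries 1 to 4, against 384, 370, 439 and 390 CPM in siN libraries 1 to 4. The groups overlapped, with siHoxa5 library 3 close to the lowest siN libraries. The log2 fold change was 0.16 (SE 0.08), and 0.02 without siHoxa5 libraries 2 and 4, which were its highest. AP2M1, the mu subunit that recognizes tyrosine-based signals in cargo tails, had 462, 533, 484 and 460 CPM in siHoxa5 libraries 1 to 4 and 573, 481, 511 and 514 CPM in siN libraries 1 to 4. These groups overlapped too, and the log2 fold change was -0.10 (SE 0.08). It was -0.05 without siN library 1, the highest of its group, and -0.05 once a trend with GC content and transcript length was taken out.

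The alpha subunits, which bind membrane lipid and accessory proteins, were near the detection limit. AP2A2 had 7, 6, 13 and 6 counts in siHoxa5 libraries 1 to 4 and 11, 12, 11 and 3 in siN libraries, with a log2 fold change of -0.07 (SE 0.41) whose sign turned under 8 of 14 other settings. AP2A1 had 3 to 4 counts in siHoxa5 and 4 to 9 in siN libraries and did not pass the filter. Summed over the groups, its 15 counts in siHoxa5 and 26 in siN libraries gave a ratio of rates of 0.63 (exact 95% interval 0.310 to 1.23, counting error only). No change in either alpha subunit could be resolved with so few counts.

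DNM2, the broadly expressed dynamin that cuts vesicles free, had 14, 17, 21 and 17 counts in siHoxa5 libraries 1 to 4 and 14, 13, 17 and 17 in siN libraries. That is 29.3 ± 4.78 CPM in siHoxa5 and 23.4 ± 3.06 CPM in siN libraries (SD, n = 4 each), with overlapping groups and a log2 fold change of 0.32 (SE 0.29). EPN2, an epsin that bends membrane and binds ubiquitinated cargo, had 1 count in all siHoxa5 and 3 in all siN libraries. Its ratio of rates, 0.364, had an exact 95% interval of 0.00693 to 4.53, so nothing can be said of its direction. No library held more than 1 EPN2 count.

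Of the 8 tested members, 2 passed an adjusted p of 0.05 in the edgeR fit over 3020 genes (SNAP91 higher, PICALM lower), where 7.12% of all tested genes passed in either direction. SNAP91 and PICALM were also the 2 of 8 whose groups did not overlap, against 12.0% of tested genes. Since this comparison was in view when the genes were chosen, nothing is read from these shares. The log2 fold changes of the 8 had a median of -0.09, beside 0.00 for all tested genes, with 3 above and 5 below 0.

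**Figure D2:**
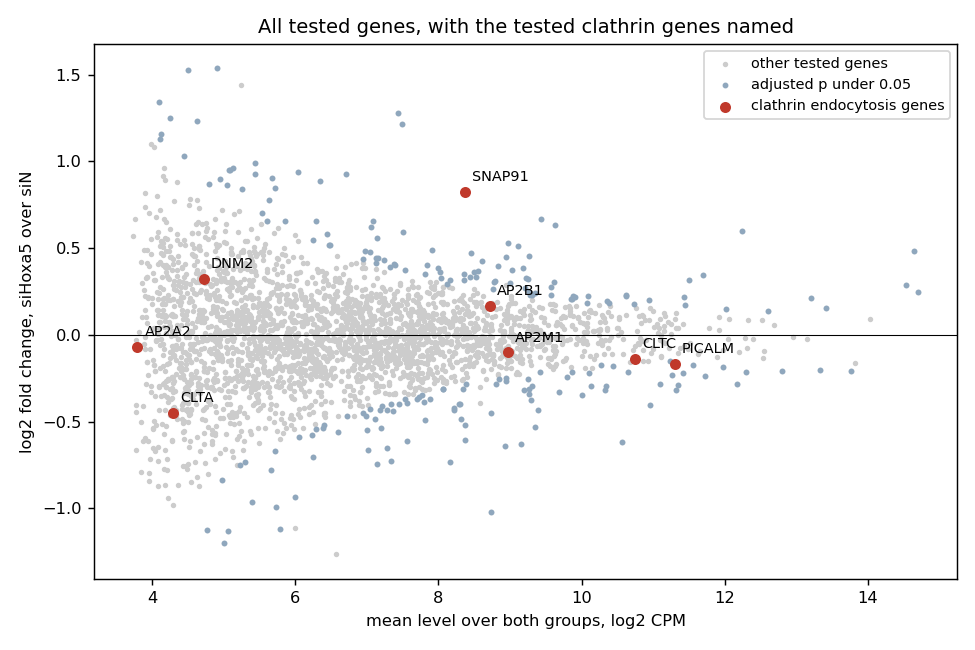
Each point is 1 of 3020 tested genes, with its mean level over both groups on the x axis (log2 CPM) and its log2 fold change, siHoxa5 over siN, on the y axis; blue-grey points had an adjusted p under 0.05 and red points are the 8 tested clathrin genes. SNAP91 lies at 0.82, while CLTC and PICALM lie at -0.14 and -0.17 and AP2A2, CLTA and DNM2 sit in the wide scatter of the lowest counts.

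Given as CPM per kb of the longest coding transcript in GENCODE M21, the rows of the members spanned a wide range of levels. In siHoxa5 libraries the order of levels was PICALM (290 ± 16.6 CPM per kb, SD, n = 4), CLTC (252 ± 29.7), AP2M1 (165 ± 11.6), SNAP91 (97.5 ± 12.2), AP2B1 (79.0 ± 9.59), CLTA (9.67 ± 1.77), DNM2 (8.36 ± 1.36), AP2A2 (2.89 ± 1.07), AP2A1 (1.84 ± 0.214) and EPN2 (0.0902 ± 0.180). In siN libraries PICALM (325 ± 9.13), CLTC (277 ± 18.3) and AP2M1 (177 ± 13.2) led again, followed by AP2B1 (70.3 ± 5.41), SNAP91 (55.1 ± 5.21), CLTA (13.2 ± 3.59), DNM2 (6.67 ± 0.872), AP2A2 (3.07 ± 1.41), AP2A1 (2.90 ± 0.950) and EPN2 (0.260 ± 0.173). SNAP91 thus ranked 4th in siHoxa5 libraries, where its range overlapped that of AP2B1, and 5th in siN libraries, where every library had less SNAP91 than any had AP2B1. In siHoxa5 libraries PICALM and CLTC, and CLTA and DNM2, overlapped as well, and in siN libraries AP2A2 and AP2A1 did. The isoforms present, and how far the unstated annotation lowered single rows, were not tested. These levels therefore rank rows of the table rather than amounts of RNA or protein in the cells.

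The rest of the pathway was read from 8 lists of 111 symbols, chosen with earlier results of these data known. Some of the symbols are older names of cavin genes that are also listed under their current names. Of the 111 symbols, 37 were tested: 2 rose, none fell and 35 did not pass (edgeR), where 3.74% of all tested genes were higher and 3.38% lower. At an unadjusted p under 0.05 there were 2 higher and 6 lower, beside 9.34% and 10.3% of all tested genes. DESeq2 called 0 of the 37 in either direction, where it called 1.99% of all tested genes higher and 1.95% lower. It gave no adjusted p for some of the 37, CLTB, ITSN2 and FNBP1L included, so it could not call those. limma-voom called 0 as well, where it called 3.54% of all tested genes higher and 3.18% lower. The median log2 fold change of the 37 was -0.03, with 13 above and 24 below 0. A p above the threshold does not show that a gene did not differ.

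PIK3C2A, the class II phosphoinositide kinase that makes the lipid needed for late pit maturation, rose. It had 27.4, 34.1, 53.1 and 46.7 CPM in siHoxa5 libraries 1 to 4, against 25.8, 17.2, 24.8 and 18.1 CPM in siN libraries 1 to 4. All siHoxa5 libraries were above all siN libraries, library 1 only just. The estimate on the log2 scale was 0.90 with an SE of 0.28 (edgeR, adjusted p = 0.0303), and adjusted p-values over 15 other settings ran from 0.00819 to 0.169, with 6 under the threshold. The call was lost without siHoxa5 library 3 (0.73) or 4 (0.83), without siN library 2 (0.81) or 4 (0.82), and without siHoxa5 libraries 2 and 4 (0.90), and also with DESeq2 (0.91), limma-voom (0.86), no filter (0.91) and the length and GC trend removed (0.81). Its list, which holds the uncoating factors and adaptor kinases, had 3 of 13 genes tested. The other two were HSPA8, the chaperone that strips clathrin from vesicles (4538 ± 287 CPM in siHoxa5 and 4861 ± 180 CPM in siN libraries, log2 fold change -0.10, edgeR adjusted p = 0.221), and AAK1, the kinase of the AP-2 mu subunit (0.17, SE 0.15). HSPA8 was -0.06 without siHoxa5 library 4, -0.03 without siHoxa5 libraries 2 and 4 and -0.03 once the trend with GC content and length was taken out. AAK1 was 0.34 without siN library 3, 0.04 without siN library 4 and 0.06 with that trend removed.

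ADRB1, the beta1-adrenergic receptor and a cargo of this route in the heart, was the other gene that rose. It had 245, 365, 283 and 280 CPM in siHoxa5 libraries 1 to 4 and 234, 230, 242 and 227 CPM in siN libraries 1 to 4. The groups did not overlap, and siHoxa5 library 2 was the highest. On the log2 scale the fold change came to 0.33 with an SE of 0.10 (edgeR, adjusted p = 0.0350), with adjusted p-values from 0.00402 to 0.482 over 16 other settings, of which 7 kept the call. It was lost with DESeq2 and limma-voom, without siHoxa5 library 2 (0.21) or 3 (0.34), without any 1 of the siN libraries (0.31 to 0.34), and without siHoxa5 libraries 2 and 4 (0.18). Of the other 5 cargo receptors tested, ADRA1B, an alpha1-adrenergic receptor that binds phenylephrine, had 46.8 ± 14.1 CPM in siHoxa5 and 64.9 ± 9.44 CPM in siN libraries (SD, n = 4 each) and a log2 fold change of -0.48 (SE 0.21), short of the threshold. Without siHoxa5 libraries 2 and 4 it was -0.80 and passed. The integrin ITGB1 had -0.16 (SE 0.08) and the transferrin receptor TFRC, the classic cargo of clathrin pits, 0.20 (SE 0.11). ITGB1 was -0.09 without siHoxa5 library 4 and -0.04 without siHoxa5 libraries 2 and 4, and TFRC was 0.12 without siHoxa5 library 1.

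**Figure D3:**
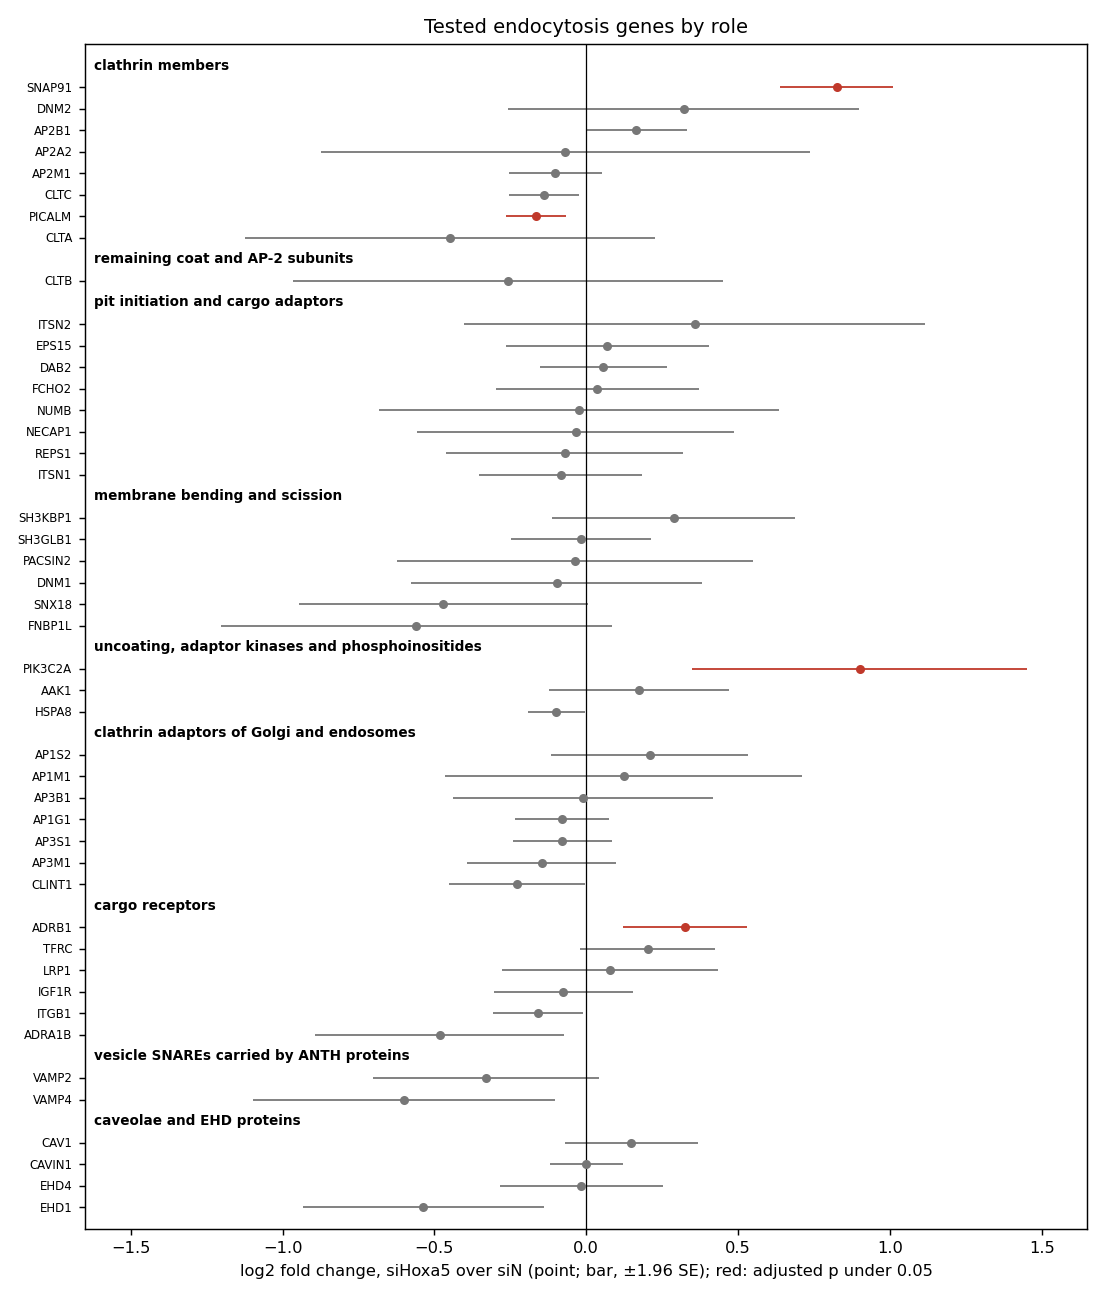
Log2 fold changes, siHoxa5 over siN, of the 45 tested genes of the clathrin and other endocytosis lists, grouped by role, with points for the estimates, bars for approximate 95% intervals and red for an adjusted p under 0.05. SNAP91 (0.82), PICALM (-0.17), PIK3C2A (0.90) and ADRB1 (0.33) are the red points.

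Among proteins that start pits and sort cargo, 0 of 8 tested genes passed with edgeR, DESeq2 or limma-voom, 0 had an unadjusted p under 0.05, and the median was 0.01. Over all tested genes edgeR called 7.12%, and at an unadjusted p under 0.05 9.34% were higher and 10.3% lower. In lists this short, here and below, 0 calls are therefore no result about the list. Examples are the scaffolds ITSN1 (-0.08, SE 0.14) and ITSN2 (0.36, SE 0.39), the adaptor DAB2 (0.06, SE 0.11) and EPS15 (0.07, SE 0.17). All 4 moved by more than 1.5 times with single libraries left out, ITSN2 from 0.11 (without siN library 3) to 0.88 (without siN library 4) and DAB2 from 0.02 (without siN library 4) to 0.11 (without siHoxa5 library 4). ITSN1 ran from -0.19 (without siN library 3) to 0.01 (without siHoxa5 library 3), and EPS15 from -0.05 (without siN library 3) to 0.19 (without siN library 4). DESeq2 gave no adjusted p for ITSN2, so it could not call that gene. Of 6 membrane bending and scission genes, 0 passed with any of the 3 tools and 0 had an unadjusted p under 0.05. In that list SNX18, a sorting nexin that bends membrane, had -0.47 (SE 0.24), FNBP1L, an F-BAR protein, -0.56 (SE 0.33), SH3KBP1 0.29 (SE 0.20) and DNM1, the neuronal dynamin, -0.10 (SE 0.24). SH3KBP1 was 0.17 without siN library 1, and DNM1 ran from -0.17 (without siHoxa5 library 2) to -0.01 (without siN library 4). FNBP1L had no adjusted p with DESeq2 and could not be called by it. CLTB, the light chain B, was the only tested gene of the remaining coat and AP-2 subunits. It had -0.26 (SE 0.36), with 0.04 without siN library 4 and -0.56 without siN library 1. Neither edgeR nor limma-voom called it, its unadjusted p was above 0.05 (edgeR), and DESeq2 gave it no adjusted p.

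Adaptors that load clathrin vesicles at the Golgi and endosomes gave 0 of 7 calls by the 3 tools, 1 unadjusted p under 0.05 and a median of -0.08. With 7.12% of all tested genes called by edgeR, 0 calls in so few genes say little about this list or those below. CLINT1, an epsin relative of that pathway, had -0.23 (SE 0.11), AP1S2 0.21 (SE 0.17), AP3M1 -0.15 (SE 0.12) and AP1G1 -0.08 (SE 0.08). CLINT1 was -0.14 without siN library 2 and AP3M1 was -0.09 without siHoxa5 library 2. AP1S2 ran from 0.13 (without siHoxa5 library 2) to 0.36 (without siN library 2) and was 0.02 without siHoxa5 libraries 2 and 4. AP1G1 ran from -0.12 (without siHoxa5 library 4) to -0.03 (without siHoxa5 library 1) and was -0.20 without siHoxa5 libraries 2 and 4. Vesicle SNAREs of the VAMP family, only some of which AP180 and CALM are known to carry, had 2 of 6 members tested and 0 calls by the 3 tools. VAMP4 had 28.8 ± 3.69 CPM in siHoxa5 and 43.9 ± 8.07 CPM in siN libraries (SD, n = 4 each), a log2 difference of -0.60 with an SE of 0.25 (edgeR, adjusted p = 0.148), and VAMP2 had -0.33 (SE 0.19). VAMP2 was at 109 CPM in siN library 1, and without that library its value was -0.12. Caveolae and EHD proteins, which serve other routes of uptake and recycling, gave 0 of 4 calls by the 3 tools and 1 unadjusted p under 0.05. EHD1, an ATPase of endocytic recycling, had 47.6 ± 12.3 CPM in siHoxa5 and 69.5 ± 4.30 CPM in siN libraries and a log2 difference of -0.54 with an SE of 0.20 (edgeR, adjusted p = 0.0906), and passed without siHoxa5 library 3 (-0.74). CAV1, EHD4 and CAVIN1 had 0.15 (SE 0.11), -0.02 (SE 0.14) and 0.00 (SE 0.06), and the last 2 turned sign under some settings. CAV1 was 0.23 without siN library 1 and 0.09 without siN library 4.

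The genes whose log2 CPM followed SNAP91 most closely over the 8 libraries were MYH13 (Pearson r = 0.98), PPARGC1A (0.969), STC1 (0.965), TJP1 (0.958) and ETV1 (0.953). These are values across 8 libraries that share the group difference, chosen as the 5 highest of all tested genes outside the members, so they are a description. With each group's mean removed the values were 0.796, 0.679, 0.635, 0.757 and 0.604. MYH13, a myosin heavy chain of extraocular muscle whose reads can be shared with other myosins, had 87.0, 93.4, 86.8 and 77.2 CPM in siHoxa5 libraries 1 to 4, against 50.1, 39.1, 48.1 and 42.3 CPM in siN libraries 1 to 4. PPARGC1A, the coactivator of mitochondrial genes, had 206 to 303 CPM in siHoxa5 and 93.7 to 127 CPM in siN libraries, and STC1, a secreted glycoprotein, 214 to 271 CPM in siHoxa5 and 97.8 to 104 CPM in siN libraries. In all 5, as in SNAP91, siHoxa5 library 2 was the highest of the 8, and siHoxa5 library 4 was the lowest of the 4 siHoxa5 libraries.

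**Figure D4:**
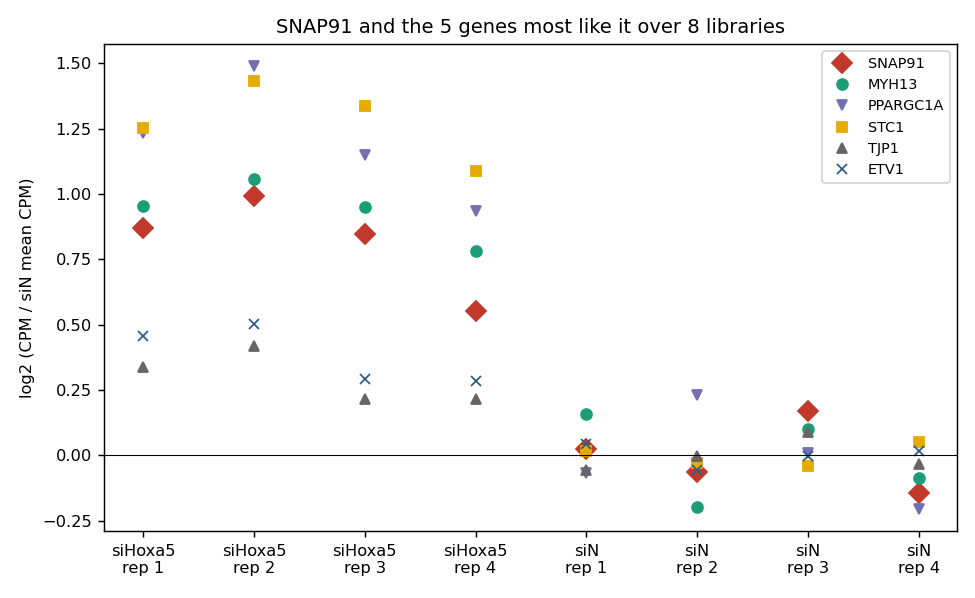
Points give log2 of CPM over the mean siN CPM (y axis) in each of the 8 libraries (x axis) for SNAP91 (red diamonds) and the 5 genes most like it. All 6 genes lie above 0 in the 4 siHoxa5 libraries and are highest in siHoxa5 replicate 2; ETV1 alone of the 5 did not pass the threshold (log2 fold change 0.39, SE 0.14).

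**Figure D5:**
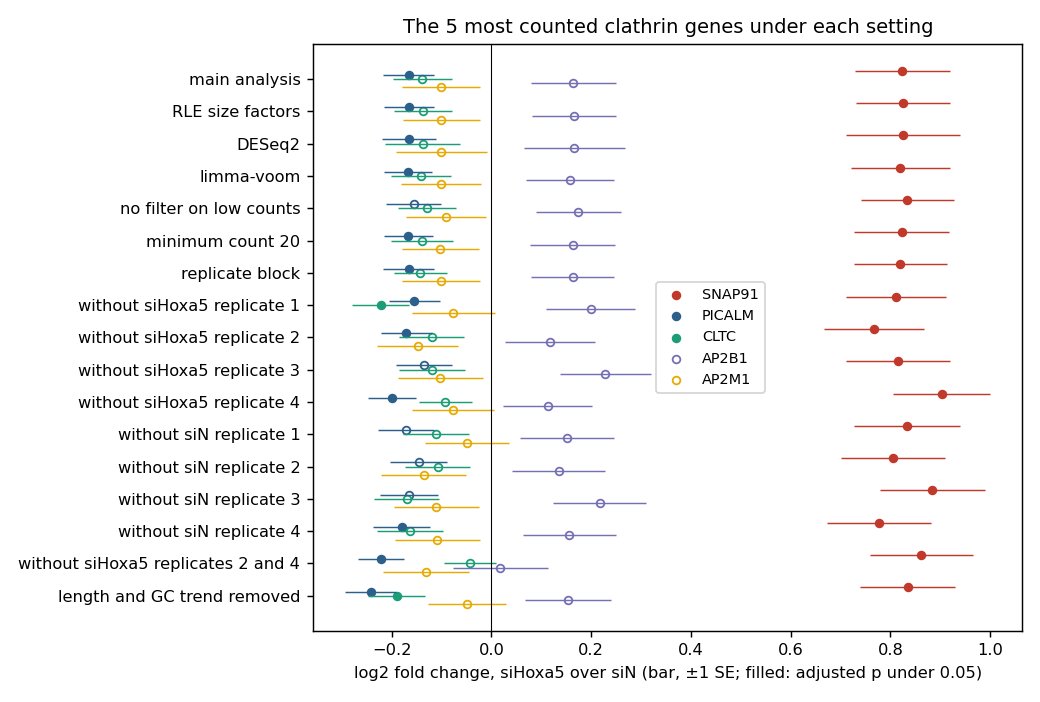
Log2 fold changes, siHoxa5 over siN, of the 5 most counted members (x axis) under the reported analysis and 16 other settings (y axis), with bars of 1 SE and filled points for an adjusted p under 0.05. SNAP91 stays between 0.77 and 0.90 and filled throughout, PICALM between -0.24 and -0.14, and CLTC and AP2B1 move toward 0 without siHoxa5 replicates 2 and 4.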

How the data were processed

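Counts per gene were deposited by the authors for 8 libraries. These deposited values are handled here as estimated counts because 4 gene rows hold values that are not whole, and they were rounded for the tests. The deposited table and the 8 library files hold identical values. The tools named are STAR 2.6.1b, HTSeq, FastQC 0.11.8 and R 3.5.3, with the mm10 build, per the submitters' processing notes. No source used here states the annotation, the strand setting or the handling of reads shared by several genes. Per the labels' protocols the libraries were made from poly-A RNA with a kit that keeps no strand information, so a gene and its antisense partner cannot be told apart. No row was blank or a summary, and 27 rows carry date names, were kept in the fit and were not matched to genes here.

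Genes were kept with edgeR's filterByExpr (minimum count 10, minimum total 15), which left 3020 of 7926 genes with a count and 98.64% of the counts. The groups were compared with edgeR 4.0.16 (R 4.3.3), TMM scaling and the robust quasi-likelihood test, with Benjamini-Hochberg adjustment over all tested genes and a threshold of 0.05. Ratios of rates for untested genes are exact and cover counting error only. The fit was tested on simulated data. Other settings were RLE size factors, DESeq2 1.42.0, limma-voom (limma 3.58.1), no filter, a minimum count of 20, a replicate block, each library left out, siHoxa5 libraries 2 and 4 left out, and a trend on length and GC content removed. TMM-scaled sizes in the ratios of AP2A1 and HOXA5 were added after seeing the data.

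The members and lists were chosen with earlier results of these data known. Genes named outside the members are up to 4 tested genes of each list with the smallest p-values, and the 5 whose log2 CPM correlated best with SNAP91. Coding sequences are from GENCODE M21 and promoters from RefSeq (GRCm38.p6), matched by symbol ignoring case, with all 10 members matched. Identity between members is over coding bases; a comparison of proteins was planned and not run. Values of some single genes are not reported here.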

Additional observations from a re-analysis of the deposited data

Results flagged for a closer look

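Of 82 groups of 4 libraries (41 genes), 7 had a library far from the other 3, where chance gives about 1 in 20 for continuous values. AP2A2 had 20.9 CPM in siHoxa5 replicate 3, with 10.8 to 11.3 CPM in the other siHoxa5 libraries, and 4.53 CPM in siN replicate 4, with 16.7 to 18.8 CPM in the other siN libraries. EPN2 had 1.61 CPM in siHoxa5 replicate 3 and 0 in the other siHoxa5 libraries, and 0 in siN replicate 1 with 1.51 to 1.57 CPM in the other siN libraries, each nonzero value being 1 count; with counts of 0 and 1, a single differing library gives such a gap by construction, and the chance rate does not apply to these 2 groups. AAK1 had 113 CPM in siHoxa5 replicate 3, with 122 to 124 CPM in the others of its group. AP1S2 had 111 CPM in siN replicate 2, with 75.5 to 80.4 CPM in the others. EHD1 had 65.9 CPM in siHoxa5 replicate 3, with 39.5 to 43.1 CPM in the others. No cause was tested.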

How the results depend on the processing

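SNAP91 kept its direction and its call under all 16 alternatives run. The number of genes called (215) was 119 with DESeq2, 143 without siHoxa5 replicates 2 and 4, and 144 to 264 with 1 library left out. Higher calls (113) were 60 with DESeq2, 68 without those 2 libraries and 73 to 134 with 1 left out. Lower calls (102) were 59 with DESeq2 and 70 to 130 with 1 left out. Members called (2) were 1 with no filter and 1 to 3 with 1 library left out. The list of uncoating factors and kinases had 0 calls with DESeq2, limma-voom, no filter, a minimum count of 20, without siHoxa5 replicates 2 and 4 and with the length and GC trend removed, and 0 to 1 with 1 library left out. Cargo receptors had 0 calls with DESeq2 and limma-voom and 0 to 1 with 1 left out, and caveolae and EHD proteins 0 to 1. PICALM was -0.16 and not called with no filter, and ran from -0.20 to -0.14 with 1 library left out. CLTC was called at -0.19 with the trend removed and ran from -0.22 to -0.0927. AP2A2 turned to 0.0567 with limma-voom and 0.18 without siHoxa5 replicates 2 and 4, and ran from -0.37 to 0.0908. With 1 library left out, CLTB ran from -0.56 to 0.0398, ITSN1 from -0.19 to 0.0124, EPS15 from -0.0465 to 0.19, EHD4 from -0.0684 to 0.0538 and CAVIN1 from -0.0916 to 0.0468. EHD4 was 0.0154 with the trend removed, and CAVIN1 was 0.000786 with RLE, 0.00107 with DESeq2, 0.00992 with no filter and 0.0345 with the trend removed. The cause of these moves was not tested.

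The labels do not say whether the replicate numbers pair the libraries, and correlations of deviations from group means could not settle it with 4 libraries per group. Same-numbered libraries had 0.0662, -0.00695, -0.0201 and 0.0428. Libraries 1 and 4 correlated best with their own number, and libraries 2 and 3 did not. The replicate block gave 250 calls. Low counts limit AP2A1, AP2A2, CLTA, DNM2, EPN2 and HOXA5, and the reason for these low counts was not tested. The siHoxa5 libraries were the shallower ones. AP2A2, CLTA, CLTB, DNM2, FNBP1L and ITSN2 have no value with DESeq2 (no adjusted p) or with a minimum count of 20 (not tested there), nor has PIK3C2A with that minimum.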
